A study of Mus musculus with 16 samples.

Results

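The genes described here are 10 members of the pathway that presents peptides on MHC class I, measured by RNA-seq in epidermal cells of the mouse footpad. They are H2-K1, H2-D1 and B2m, which encode the class I molecule itself, Tap1, Tap2 and Tapbp, which act in peptide transport and loading, Psmb8, Psmb9 and Psmb10, which are catalytic subunits of the immunoproteasome, and Nlrc5, which encodes a transactivator of class I genes. The members were chosen by name, with earlier results of these data known. They were matched to the annotation by symbol, with 1 identifier each out of 50600 in the count table. All 10 had enough counts to be tested, among 22155 genes in all.

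Nearly every nucleated cell displays on its surface short peptides cut from its own proteins, so that CD8 T cells can inspect them. The proteasome cuts the protein, the TAP transporter carries the peptide into the endoplasmic reticulum, tapasin helps to load it, and the peptide leaves for the surface in a complex of heavy chain and beta-2-microglobulin. Interferons raise many of these genes together, and keratinocytes, the main cells of the epidermis, raise class I in inflamed skin.

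The 16 libraries came from female C57/B6J mice, with 4 biological replicates in each group, and the study's methods give the individual mouse as the unit of its animal experiments. The diet was AIN-93M, a purified feed low in ligands of the aryl hydrocarbon receptor (AhR-poor diet, called SYNTH in the labels), or that feed plus indole-3-carbinol at 200 ppm (I3C diet), begun at the age of 5 wk and given for 3 wk. The footpad then received 50 μl of PBS with 50 μg of papain, a protease allergen, or PBS alone (vehicle), and epidermal cells were collected after 6 hr. Animals of one diet lived in one cage, so an effect of diet and one of cage cannot be told apart, and the sequencing unit of each library is not named in the labels. The groups were thus I3C vehicle (libraries T108, T109, T110 and T111), I3C papain (T106, T113, T114 and T115), AhR-poor vehicle (T100, T101, T102 and T103) and AhR-poor papain (T104, T105, T107 and T112), and values below follow that order of libraries. Totals lay between 22500821 counts in T107 and 51844375 in T105. The keratinocyte genes Krt5, Krt14, Krt1 and Krt10 were among the abundant transcripts of all 16 libraries, with Krt1 the lowest of them at 3911 CPM (counts scaled to library size) or more, which is what the label of epidermal cells implies. Markers of dermal and blood-borne cells were also present, more so on the AhR-poor diet, and are given beside the results they touch.

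Of the members, 7 lie close together in the major histocompatibility complex of chromosome 17, as annotated in GENCODE M21 for GRCm38. In order along the chromosome they are Tapbp (33915899 to 33929292), H2-K1 (33996017 to 34000347), Psmb9 (34181987 to 34187764), Tap1 (34187553 to 34197225), Psmb8 (34197721 to 34201454), Tap2 (34203527 to 34216321) and H2-D1 (35262730 to 35267499). Tap1 and Psmb9 are transcribed away from each other and share 212 exonic bases on opposite strands. B2m lies apart on chromosome 2 (122147686 to 122153083), and Psmb10 (105935735 to 105938444) and Nlrc5 (94434356 to 94527272) lie on chromosome 8. Opposite-strand genes also cover 498 exonic bases of Psmb8, 698 of Tap2, 904 of Tapbp and 78 of Nlrc5, and the strand setting of the counting is not given in the sources used here. Another gene on the same strand covers 149 exonic bases of Tapbp.

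The RefSeq promoter windows of the class I chains, of the transporter and of an immunoproteasome subunit are printed here because the results turn on how these 3 roles moved with papain. Each window runs from 250 bases before to 50 bases after the annotated start, on GRCm38.p6, and 8 of the 10 members have an entry. Capitals mark matches, on either strand, to 5 short motifs: GAAANNGAA (the core of an interferon-stimulated response element), TTCNNNGAA (a gamma-activated site), GGANTNNCC (the core of an NF-kB site), TGACG (the X2 box or CRE core) and CCAAT (the Y box).
H2-K1, chr17:34000284-34000583, minus strand: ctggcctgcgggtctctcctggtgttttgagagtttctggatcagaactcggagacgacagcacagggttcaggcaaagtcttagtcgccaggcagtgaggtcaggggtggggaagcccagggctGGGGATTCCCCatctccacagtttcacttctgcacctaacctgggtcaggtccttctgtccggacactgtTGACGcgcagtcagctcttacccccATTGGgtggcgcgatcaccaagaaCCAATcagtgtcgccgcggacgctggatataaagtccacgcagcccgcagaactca
H2-D1, chr17:35262844-35263143, plus strand: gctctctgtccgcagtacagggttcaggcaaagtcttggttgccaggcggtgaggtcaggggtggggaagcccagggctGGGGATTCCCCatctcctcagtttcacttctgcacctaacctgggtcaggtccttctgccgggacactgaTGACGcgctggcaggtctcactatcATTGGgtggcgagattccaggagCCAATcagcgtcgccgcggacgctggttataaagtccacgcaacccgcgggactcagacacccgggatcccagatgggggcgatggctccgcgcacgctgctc
B2m, chr2:122147437-122147736, plus strand: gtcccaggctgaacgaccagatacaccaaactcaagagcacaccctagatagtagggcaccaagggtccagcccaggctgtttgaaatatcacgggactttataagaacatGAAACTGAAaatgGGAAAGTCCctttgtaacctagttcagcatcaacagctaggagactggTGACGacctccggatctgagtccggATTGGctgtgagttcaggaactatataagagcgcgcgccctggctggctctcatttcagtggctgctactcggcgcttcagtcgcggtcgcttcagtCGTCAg
Tap1, chr17:34187306-34187605, plus strand: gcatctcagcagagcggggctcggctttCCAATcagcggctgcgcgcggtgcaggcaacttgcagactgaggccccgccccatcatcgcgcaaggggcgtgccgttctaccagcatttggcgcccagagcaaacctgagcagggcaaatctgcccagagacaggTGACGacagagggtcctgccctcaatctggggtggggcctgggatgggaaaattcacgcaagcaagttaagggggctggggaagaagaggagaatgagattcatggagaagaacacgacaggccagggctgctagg
Psmb8, chr17:34197945-34198244, plus strand: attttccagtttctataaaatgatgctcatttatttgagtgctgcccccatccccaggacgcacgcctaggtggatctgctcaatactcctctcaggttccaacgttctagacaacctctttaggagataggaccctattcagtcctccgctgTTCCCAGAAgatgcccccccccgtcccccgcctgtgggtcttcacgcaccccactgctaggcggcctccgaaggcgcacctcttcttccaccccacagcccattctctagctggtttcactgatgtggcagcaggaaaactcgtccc

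The H2-K1 and H2-D1 windows held the same motifs in the same order, 2 overlapping matches to GGANTNNCC, then TGACG, then CCAAT on each strand, and shared a run of 47 identical bases. The B2m window held GAAANNGAA, GGANTNNCC, TGACG and CCAAT. Of the 8 members with an entry, TGACG was found in 5 (20.8% of all 32851 promoter windows), CCAAT in 6 (37.4%), GGANTNNCC in 3 (12.99%), GAAANNGAA in 1 (8.56%) and TTCNNNGAA in 1, Psmb8 (8.30%). The Psmb9 window overlaps that of Tap1 by 275 bases, so their matches are not separate. A match describes the letters only, and the absence of a match does not show that a window lacks an element of that kind.

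With vehicle the heavy chains were the most abundant members per length. On the scale of CPM per kb of the principal transcript, the level with vehicle on the I3C diet was 184 ± 22.3 (SD, n = 4) for H2-D1, 166 ± 21.2 for H2-K1 and 103.4 ± 17.8 for B2m. Tapbp followed at 30.4, Tap1 at 14.7, Tap2 at 12.1 and Psmb10 at 6.54. Psmb8 at 2.53, Psmb9 at 2.39 and Nlrc5 at 1.16 were the lowest. The ranges over libraries overlapped between the neighbours H2-D1 and H2-K1, Tap1 and Tap2, and Psmb8 and Psmb9, and did not overlap between the other neighbours. The order with vehicle on the AhR-poor diet was the same, from 174 CPM per kb for H2-D1 to 1.32 for Nlrc5. With papain on the AhR-poor diet, B2m (241), H2-D1 (236) and H2-K1 (234) were not separated, and on the I3C diet Nlrc5 (10.3) came before Psmb8 (7.10) and Psmb9 (6.72), with overlapping ranges between neighbours.

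Papain raised the immunoproteasome subunits and Nlrc5 on both diets, and it moved the class I chains by less. A call required an adjusted p below 0.01 in edgeR's quasi-likelihood test together with a change of more than 1 on the log2 scale in either direction. On the AhR-poor diet 5 of 10 members were called higher (Tap2, Psmb8, Psmb9, Psmb10 and Nlrc5), where 6.04% of all genes tested were, and none was lower (2.42% of all genes). On the I3C diet 4 of 10 were called higher (Psmb8, Psmb9, Psmb10 and Nlrc5), against 3.69% of all genes, and none was lower (5.29%). Without the fold threshold, all 10 members were higher at an adjusted p below 0.01 on the AhR-poor diet (12.4% of all genes) and 7 of 10 on the I3C diet (12.7%), the 3 exceptions being H2-K1, H2-D1 and B2m. On the AhR-poor diet these same 3 did not keep an adjusted p below 0.01 under every alternative, the highest being 0.0282 for H2-K1 without T101, 0.0236 for H2-D1 without T105 and 0.0107 for B2m in the edgeR fit on the 8 libraries compared. The median log2 fold change of the 10 members was 0.97 on the AhR-poor diet and 0.92 on the I3C diet, beside -0.0044 and -0.036 over all genes tested. Every papain library lay above every vehicle library for 8 members on the AhR-poor diet (17% of all genes) and for 7 on the I3C diet (16.2%).

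**Figure D1:**
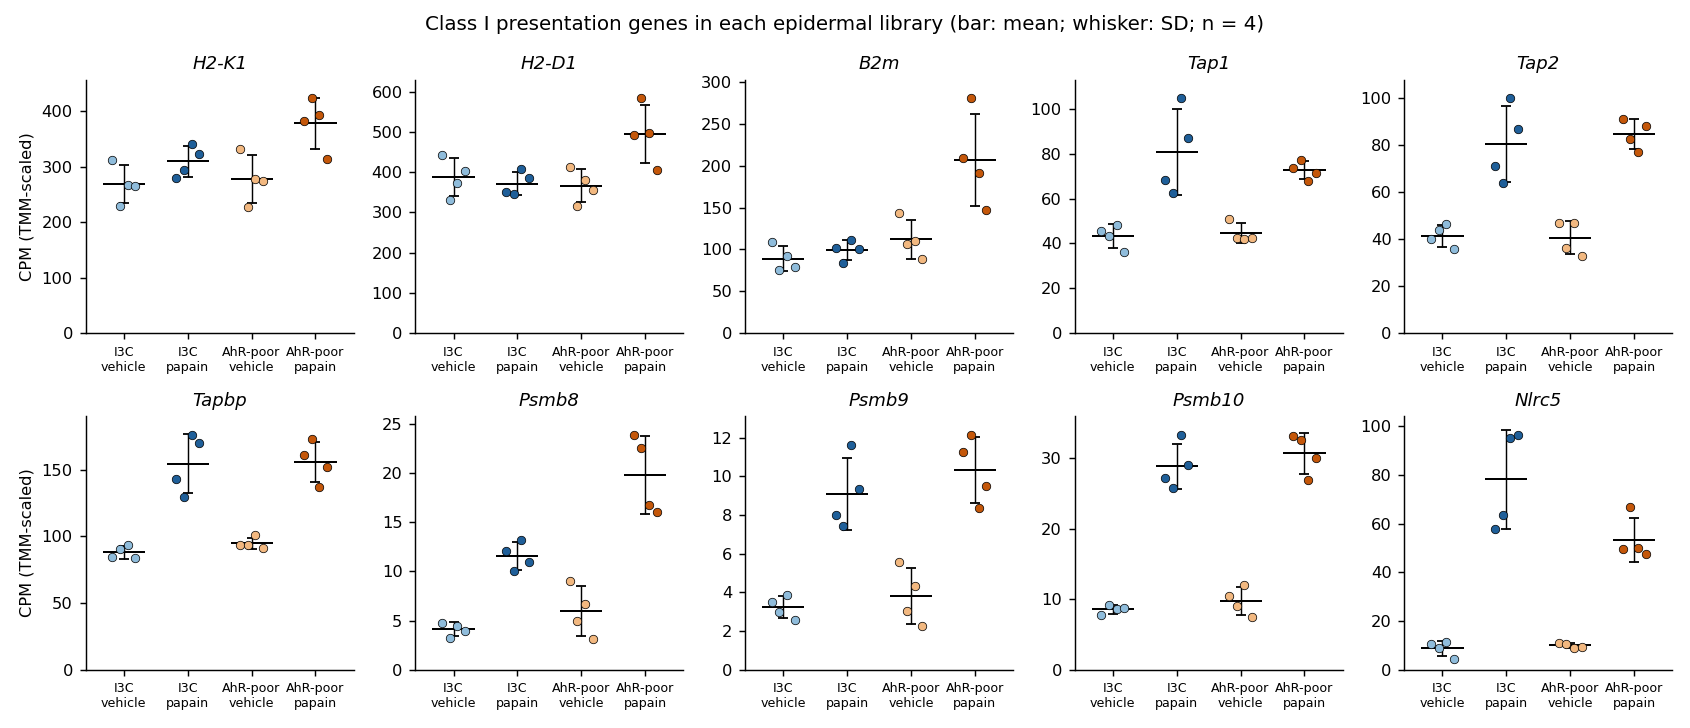
TMM-scaled CPM of each of the 10 members, on a linear axis from 0, in the 4 libraries of each group (points), with the mean (bar) and SD (whisker). Psmb8, Psmb9, Psmb10, Nlrc5, Tap1, Tap2 and Tapbp stand higher with papain on both diets without overlap, while B2m stands apart with papain on the AhR-poor diet, at 147 to 281 CPM.

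Nlrc5, the transactivator that binds the promoters of class I genes as part of a larger complex, rose the most of the 10. With vehicle it stood at 10.5, 8.90, 11.4 and 4.44 CPM on the I3C diet and, for mice fed the AhR-poor diet, at 10.8, 10.5, 9.07 and 9.44 CPM. After papain it stood at 57.7, 63.7, 95.0 and 96.4 CPM on the I3C diet and at 49.4, 66.7, 49.9 and 47.5 CPM on the AhR-poor diet. The groups of each diet did not overlap, and T111 held the lowest vehicle value. The rise was 8.88-fold on the I3C diet, a log2 fold change of 3.15 ± 0.25 (SE, adjusted p = 2.11e-07), and 5.36-fold on the AhR-poor diet, 2.42 ± 0.25 (SE, adjusted p = 3.89e-06). The difference between these log2 fold changes, -0.73 (standard error 0.33), did not pass (adjusted p = 0.363).

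All 3 immunoproteasome subunits rose on both diets, by 2.81-fold to 3.36-fold on the I3C diet and by 2.72-fold to 3.33-fold on the AhR-poor diet. Psmb8, the subunit that takes the place of Psmb5, measured 4.80, 3.21, 4.49 and 3.96 CPM with vehicle and 12.03, 10.005, 13.2 and 10.99 CPM with papain on the I3C diet. On the AhR-poor diet it measured 9.04, 4.92, 6.73 and 3.11 CPM with vehicle and 23.8, 22.6, 16.7 and 16.02 CPM with papain. Papain and vehicle did not overlap on either diet, and the vehicle libraries of the AhR-poor diet spread more widely, from T103 to T100. Its log2 fold change was 1.49 ± 0.25 (SE, adjusted p = 1.32e-04) on the I3C diet and 1.73 ± 0.24 (SE, adjusted p = 3.38e-05) on the AhR-poor diet.

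Psmb9, which replaces Psmb6, measured 3.50, 3.01, 3.86 and 2.55 CPM with vehicle and 7.99, 7.44, 11.6 and 9.33 CPM with papain on the I3C diet. In AhR-poor mice the values were 5.58, 3.04, 4.30 and 2.28 CPM with vehicle and 11.3, 12.1, 8.35 and 9.49 CPM with papain. T103 held the lowest and T100 the highest vehicle value there, as for Psmb8. The log2 fold changes were 1.49 ± 0.23 (SE, adjusted p = 4.27e-05) and 1.44 ± 0.23 (SE, adjusted p = 7.09e-05), on the I3C and the AhR-poor diet.

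Psmb10, which replaces Psmb7, measured 7.72, 9.13, 8.65 and 8.79 CPM with vehicle and 27.3, 25.7, 33.3 and 29.1 CPM with papain on the I3C diet. In AhR-poor mice it measured 10.5, 9.08, 11.97 and 7.46 CPM with vehicle and 33.1, 32.6, 26.9 and 30.1 CPM with papain. The log2 fold changes, 1.75 ± 0.13 (SE, adjusted p = 7.78e-09) on the I3C and 1.65 ± 0.12 (SE, adjusted p = 3.02e-08) on the AhR-poor diet, had the smallest standard errors of the 3 subunits.

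The constitutive subunits moved far less. Psmb5, Psmb6 and Psmb7 had log2 fold changes with papain of 0.41, 0.21 and 0.26 on the AhR-poor diet and of 0.47, 0.18 and 0.29 on the I3C diet, and none of the 3 was called by edgeR or by DESeq2, although all 3 had an unadjusted p under 0.05 on both diets and 2 of 3 an adjusted p below 0.01. To set each pair side by side independently of the scaling, the reads on the immunosubunit were divided by those on its partner in each library. Psmb10 reads amounted to 7.09% of Psmb7 reads with vehicle and 19.4% with papain on the I3C diet, and to 7.56% and 20.03% on the AhR-poor diet. Psmb9 reads were 2.79% of Psmb6 reads with vehicle and 6.81% with papain on the I3C diet, and 3.03% and 7.24% on the AhR-poor diet. All 3 ratios were higher in every papain library than in every vehicle library of the same diet. For Psmb8 against Psmb5 the mean went from 8.91% to 17.7% on the I3C diet and from 11.3% to 29.0% on the AhR-poor diet. With 4 libraries against 4, the two-sided exact permutation test cannot give a p below 0.0286, and each of these 6 comparisons reached it. Over the 32 comparisons of 8 ratios the adjusted p was then 0.0508, so no ratio passed 0.05 after adjustment, and 18 of the 32 had groups without overlap.

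**Figure D2:**
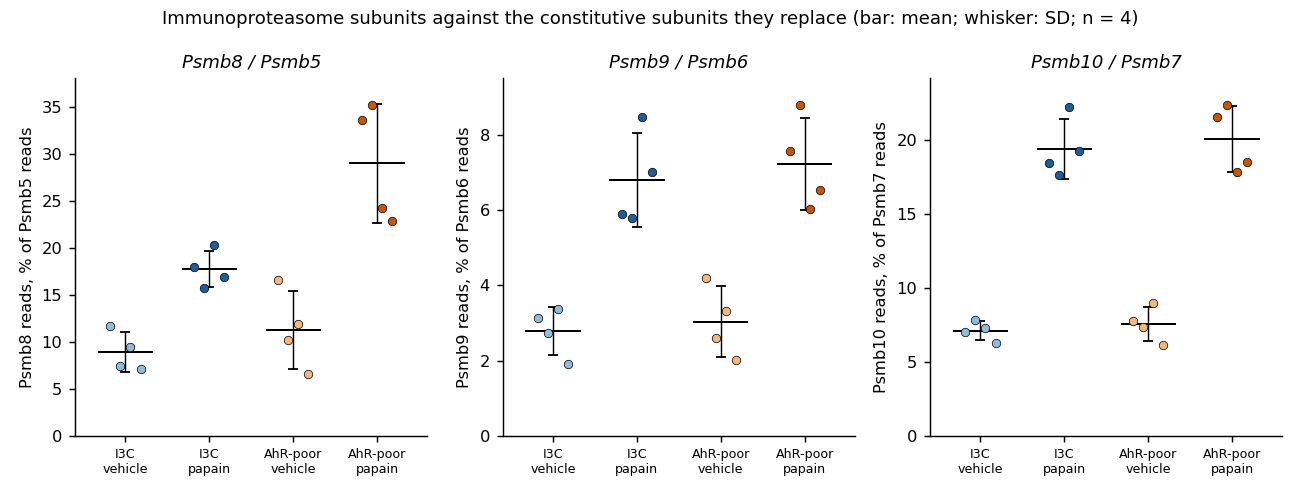
Reads on each immunoproteasome subunit as a percent of the reads on the constitutive subunit it replaces, per library (points), with the mean (bar) and SD (whisker) of 4 libraries, on a linear axis from 0. Papain libraries lie above vehicle libraries on both diets for all 3 pairs, and Psmb8 against Psmb5 reaches 22.8% to 35.3% with papain on the AhR-poor diet.

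The transport and loading genes were higher with papain on both diets, between 1.63-fold for Tap1 and 2.08-fold for Tap2 on the AhR-poor diet. Tap2, a chain of the peptide transporter, measured 40.1, 43.8, 46.4 and 35.7 CPM with vehicle and 71.3, 63.9, 99.9 and 86.7 CPM with papain on the I3C diet. The AhR-poor libraries gave 46.8, 36.1, 46.7 and 33.0 CPM with vehicle and 91.0, 82.8, 76.9 and 88.2 CPM with papain. The papain and vehicle groups stood apart on both diets. The log2 fold change was 1.06 ± 0.14 (SE, adjusted p = 1.36e-05) on the AhR-poor diet, which was called, and 0.95 ± 0.14 (SE, adjusted p = 2.64e-05) on the I3C diet, which fell short of the fold threshold. These calls depended on single libraries: without T103 the first was 0.98 and no longer called, and without T106, T110 or T113 the second was 1.001, 1.01 or 1.04 and called.

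Tap1, the other chain, ranged from 36.2 to 48.4 CPM with vehicle and 62.3 to 104.8 CPM with papain on the I3C diet, and from 42.0 to 51.1 and 67.8 to 77.4 CPM on the AhR-poor diet. Its log2 fold change was 0.89 ± 0.13 (SE, adjusted p = 3.23e-05) on the I3C and 0.70 ± 0.13 (SE, adjusted p = 4.13e-04) on the AhR-poor diet. After papain, T114 and T115 on the I3C diet lay above all 4 libraries of the AhR-poor diet and T113 lay below all 4. Tapbp, which encodes tapasin, lay at 83.5 to 93.6 CPM with vehicle and 129 to 176 CPM with papain on the I3C diet, and at 91.2 to 101.1 and 137 to 173 CPM on the AhR-poor diet. Its log2 fold changes were 0.81 ± 0.093 (SE, adjusted p = 1.34e-06) and 0.72 ± 0.093 (SE, adjusted p = 9.44e-06), in the same order of diets. Neither gene was called, since both stayed under the fold threshold at an adjusted p below 0.01.

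The class I chains were higher with papain on the AhR-poor diet by less than the fold threshold, and no difference was called on the I3C diet. H2-K1, a classical heavy chain, measured 313, 229, 268 and 266 CPM with vehicle and 280.4, 295, 342 and 323 CPM with papain on the I3C diet. On the AhR-poor diet it measured 332, 227, 277 and 275 CPM with vehicle and 383, 423, 395 and 313 CPM with papain. The groups overlapped on both diets, through T112 on the AhR-poor diet, which lay below the vehicle library T100. The log2 fold change was 0.45 ± 0.12 (SE, adjusted p = 0.00572) on the AhR-poor and 0.21 ± 0.12 (SE, adjusted p = 0.186) on the I3C diet.

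H2-D1, the other classical heavy chain, measured 442, 332, 373 and 402 CPM with vehicle and 351, 345, 407 and 384 CPM with papain on the I3C diet. The values on the AhR-poor diet were 413, 315, 379.8 and 356 CPM with vehicle and 493, 583, 498 and 406 CPM with papain. T105 was the highest of all 16 libraries and T112 again overlapped the vehicle group. The log2 fold change was 0.44 ± 0.11 (SE, adjusted p = 0.00445) on the AhR-poor and -0.059 ± 0.11 (SE, adjusted p = 0.728) on the I3C diet. Of the windows of 100 bases along the H2-D1 transcript, 4.64% were found identical in another gene, H2-Q1 and H2-T23 among them, and none of the H2-K1 windows was, so that a small part of the H2-D1 count could be split between genes.

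B2m, the light chain that every class I heavy chain needs, measured 109.3, 75.2, 91.7 and 79.4 CPM with vehicle and 102.1, 83.5, 111.7 and 100.5 CPM with papain on the I3C diet. The AhR-poor libraries gave 143, 106.2, 110.3 and 88.3 CPM with vehicle and 209, 281, 192 and 147 CPM with papain. The last group did not overlap any other, and T105 was its highest and T112 its lowest library. The log2 fold change with papain was 0.89 ± 0.18 (SE, adjusted p = 0.00145) on the AhR-poor diet and 0.16 ± 0.18 (SE, adjusted p = 0.544) on the I3C diet. The first stayed under the fold threshold and was called without T100 (1.03) or without T112 (1.02).

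The balance of heavy to light chain was set within each library. It did not overlap between papain and vehicle on the AhR-poor diet, being lower with papain (exact permutation p = 0.0286, adjusted p = 0.0508). H2-K1 reads were 252% of B2m reads with vehicle (214% to 312%) and 188% with papain (151% to 213%) on the AhR-poor diet, without overlap. The same percentages were 304% and 314% on the I3C diet, where the ranges overlapped. H2-D1 reads were 439.6% of B2m reads with vehicle and 376% with papain on the I3C diet, and 333% and 245% on the AhR-poor diet. With vehicle, the log2 ratio of H2-D1 to B2m differed between the diets by -0.41 ± 0.13 (SE), AhR-poor minus I3C, also without overlap. Against the I3C diet with papain, the log2 ratio on the AhR-poor diet with papain differed by -0.74 ± 0.13 (SE) for H2-K1 and -0.62 ± 0.11 (SE) for H2-D1, both without overlap (exact permutation p = 0.0286, adjusted p = 0.0508). The ratio of H2-K1 to H2-D1 moved by 0.26 ± 0.034 (SE) on the log2 scale with papain on the I3C diet, also without overlap, and by 0.019 ± 0.046 (SE) on the AhR-poor diet. Reads of Tap1 came to 111.6% of Tap2 reads with vehicle and 86.0% with papain on the AhR-poor diet, and the ranges overlapped (exact permutation p = 0.0571, adjusted p = 0.0914).

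**Figure D3:**
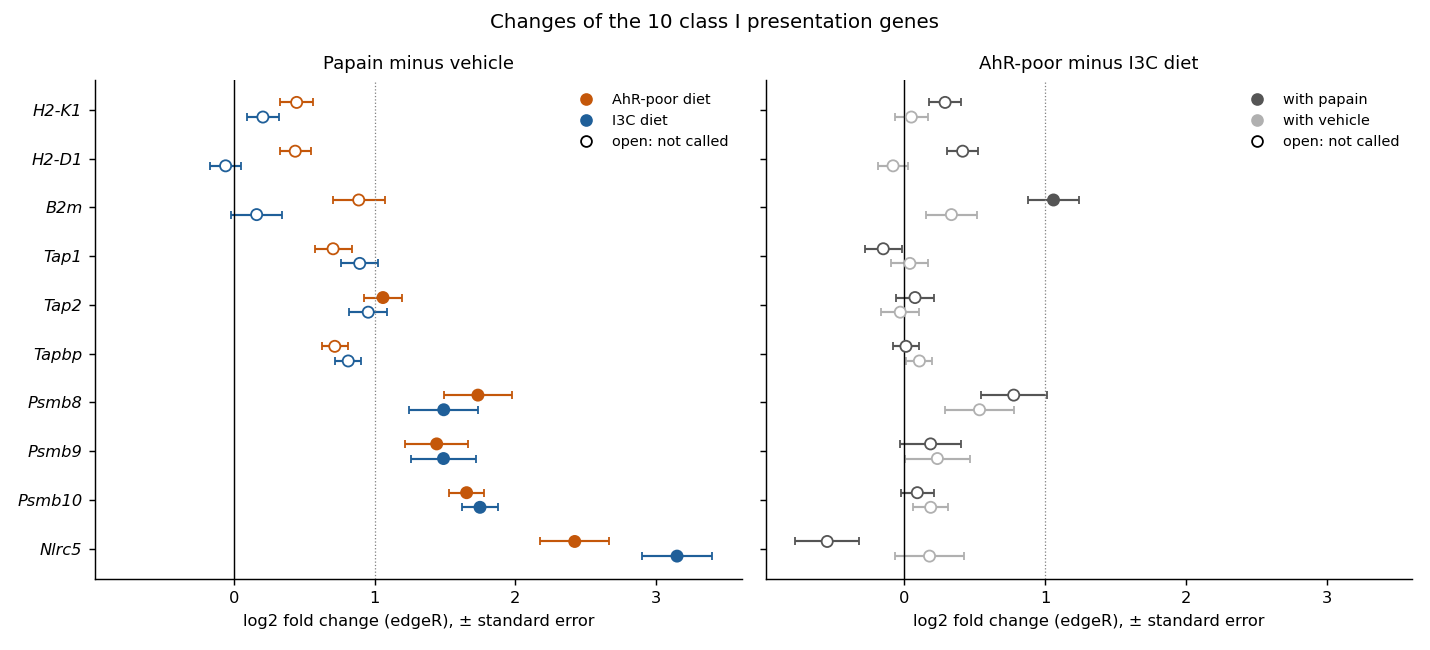
Log2 fold changes of the 10 members with their standard errors, papain minus vehicle on each diet (left) and the AhR-poor minus the I3C diet with each injection (right). Filled points were called and the dotted line marks a log2 fold change of 1. On the left Nlrc5 reaches 3.15, and on the right B2m with papain, at 1.06, is the only member called.

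The diets were compared because the study asked what dietary AhR ligands do in skin exposed to an allergen. With vehicle no member was called by edgeR or DESeq2 (1.59% of all genes tested were called higher, and 1.72% without the fold threshold), and 1, Psmb8, had an unadjusted p under 0.05. The log2 differences, AhR-poor minus I3C, ran from -0.081 for H2-D1 to 0.53 for Psmb8 (standard error 0.25, adjusted p = 0.386), and every member overlapped between the diets. A p above the threshold does not show that the levels are equal, and the standard errors of the 10 differences ran from 0.092 for Tapbp to 0.25 for Psmb8.

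With papain, B2m was 2.08-fold higher in AhR-poor than in I3C mice, a log2 difference of 1.06 ± 0.18 (SE, adjusted p = 7.33e-04), the only member called (7.15% of all genes tested were called higher, 0.0993% lower, and 8.13% were higher at any fold). The call was lost without T105 (0.86) or without T113 (0.99). Psmb8 was also higher in all 4 libraries of the AhR-poor diet, by 0.78 (standard error 0.23), with an adjusted p of 0.0257 that did not pass. These 2 of 10 members did not overlap between the diets, beside 12.5% of all genes. H2-D1 differed by 0.41 ± 0.11 (SE, adjusted p = 0.0112) and H2-K1 by 0.29 ± 0.12 (SE, adjusted p = 0.0880), neither passing. Tap1, Tap2, Tapbp, Psmb9 and Psmb10 differed by between -0.15 and 0.19, and Nlrc5 by -0.55 ± 0.23 (SE, adjusted p = 0.108), in the direction of the I3C diet.

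Whether papain acted differently on the diets was tested as an interaction. No member passed in edgeR or DESeq2 (0.0181% of all genes did in edgeR), and 3 had an unadjusted p under 0.05. These were H2-D1, at 0.49 ± 0.15 (SE, adjusted p = 0.186), B2m, at 0.73 ± 0.26 (SE, adjusted p = 0.257), and Nlrc5, given above. The estimates for Tap1, Tap2, Tapbp, Psmb9 and Psmb10 lay between -0.19 and 0.10, with standard errors of 0.13 to 0.32, and those for H2-K1 and Psmb8 were 0.24 and 0.24.

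Markers of cells other than keratinocytes differed between groups, and their part in the result for B2m was not tested. The summed levels of leukocyte, neutrophil, monocyte and macrophage, fibroblast, and Langerhans cell markers were, like B2m, highest in the AhR-poor papain libraries. With vehicle, where B2m was not called, edgeR called 8 of 8 endothelial, 8 of 9 fibroblast and 3 of 8 monocyte and macrophage markers higher on the AhR-poor diet. This was beside 1.59% of all genes tested. None of the leukocyte, neutrophil, Langerhans cell and T cell markers was called there by edgeR, and 1, 4, 4 and 0 were by DESeq2. In such bulk libraries, fewer cells of a type and less RNA per cell cannot be told apart. The summed CPM of 5 leukocyte markers (Ptprc, Laptm5, Coro1a, Cd53 and Cd52) ranged from 20.3 to 31.3 with vehicle and 19.3 to 59.6 with papain on the I3C diet, and from 54.6 to 60.4 and 85.3 to 306 on the AhR-poor diet, with all 5 called higher with papain there and none on the I3C diet (DESeq2 called 0, and 1 had an unadjusted p under 0.05). The interaction of diet and papain was called for none of the 5 by edgeR or DESeq2, and 4 had an unadjusted p under 0.05. In the 4 papain libraries of the AhR-poor diet these sums were 187, 306, 182 and 85.3 CPM, in the same order of libraries as B2m, T105 highest and T112 lowest. On the I3C diet, where Psmb8, Psmb9, Psmb10 and Nlrc5 were called higher, 4 of the 5 leukocyte markers had log2 fold changes above 0, with a median of 0.41 and a highest value of 1.12.

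Markers of single cell types were counted in the same way. Of 8 neutrophil markers, all 8 were called higher with papain on the AhR-poor diet (7 by DESeq2), beside 6.04% of all genes tested. On the I3C diet 2 were (Cxcr2 and Mmp9, and 5 by DESeq2), beside 3.69% of all genes. Their sums with papain were 62.8 to 325 and 35.7 to 43.3 CPM, against 9.95 to 11.8 and 2.93 to 6.18 with vehicle. On the I3C diet with papain, Cxcr2 alone measured 22.9, 19.3, 29.5 and 25.2 CPM. Csf3r, Clec4d, Retnlg and Mmp8 measured at most 2.29 CPM in any library there. Ly6g, a defining neutrophil marker, had no count in any library but those of AhR-poor papain, where it measured 2.07, 2.43, 2.51 and 0.218 CPM. Of 8 monocyte and macrophage markers 6 and 2 were called higher with papain, on the AhR-poor and the I3C diet. Their sums with papain were 60.2 to 152 and 11.4 to 33.9 CPM. The interaction of diet and papain was called for none of the neutrophil markers by edgeR or DESeq2, and 1 had an unadjusted p under 0.05. For the monocyte and macrophage markers it was also called for none by either, and 3 had an unadjusted p under 0.05. Endothelial and fibroblast markers were called higher in AhR-poor than in I3C mice after either injection, 8 of 8 and 8 of 9 each time. With papain, all 9 fibroblast markers were called higher on the AhR-poor diet, with a median log2 fold change of 1.91, while on the I3C diet none was called higher and 1 was lower. Their interaction of diet and papain was called for none by edgeR and for 2 by DESeq2, with 5 at an unadjusted p under 0.05. Of the endothelial markers 1 of 8 was called higher with papain on the AhR-poor diet, and none on the I3C diet by edgeR or DESeq2, where 0 had an unadjusted p under 0.05. The interaction was called for no endothelial marker by edgeR or DESeq2, and 2 had an unadjusted p under 0.05. With papain, Langerhans cell markers summed to 1063 to 1188 CPM on the AhR-poor and 698 to 944 CPM on the I3C diet, and T cell markers to 53.7 to 80.3 and 41.3 to 58.3 CPM, each with 1 of 7 called higher on the AhR-poor diet by edgeR and 4 of 7 by DESeq2. At an unadjusted p under 0.05, 5 of the Langerhans cell markers were higher and 1 lower, and 6 of the T cell markers were higher. The lower one, Cd24a, measured 239 to 303 CPM on the AhR-poor and 287 to 368 CPM on the I3C diet. Cd207 measured 26.0 to 38.4 and 6.54 to 26.0 CPM. Trbc2, a large part of the T cell sums, measured 23.3 to 32.7 and 28.2 to 37.3 CPM. Of the keratinocyte markers, none of 6 basal ones was called in that comparison, and 1 of 7 suprabasal ones was called higher. At an unadjusted p under 0.05, 4 basal markers were lower and 3 suprabasal ones higher. At an adjusted p below 0.01, 2 basal markers were lower, and the median log2 difference of the 6 was -0.40. The part of these cells in the results for the members was not tested.

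**Figure D4:**
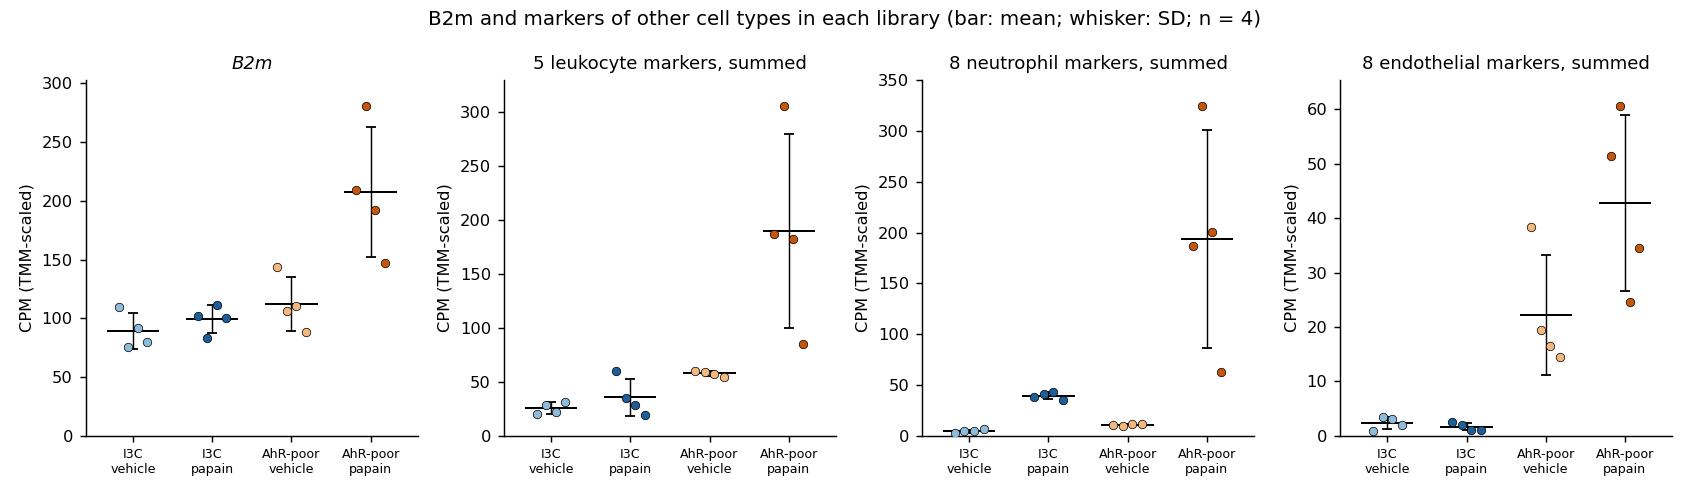
B2m and the summed levels of leukocyte, neutrophil and endothelial markers, in TMM-scaled CPM on linear axes from 0, per library (points) with the mean (bar) and SD (whisker) of 4 libraries. In the AhR-poor papain group T105 is highest and T112 lowest for B2m (281 and 147 CPM) and for the leukocyte and neutrophil sums, while T107 is lowest for the endothelial sum.

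Class Ib heavy chains, relatives of H2-K1 and H2-D1 of lower level and narrower distribution, were in part called higher with papain on the AhR-poor diet. Of 16 listed genes 12 had enough counts. With papain on the AhR-poor diet, 5 of the 12 were called higher (H2-Q6, H2-Q7, H2-Q10, H2-T24 and H2-M3), beside 6.04% of all genes tested. On the I3C diet none was called by edgeR or DESeq2, where edgeR called 3.69% of all genes higher and 5.29% lower. There H2-Q4, lower, was the 1 gene with an unadjusted p under 0.05. The list's median log2 fold change was 0.49 and 0.033 on the 2 diets. Without T101 or without T104, H2-M3 was not called on the AhR-poor diet and 4 of 12 were. The test of the difference between these responses passed for none of the 12 in edgeR and for 1 in DESeq2, and 4 had an unadjusted p under 0.05.

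H2-Q10, best known as a secreted class I molecule of the liver, measured 0.109, 0.132, 0.0989 and 0.0268 CPM with vehicle and 6.03, 13.01, 6.84 and 0.979 CPM with papain on the AhR-poor diet, with T105 highest. On the I3C diet its counts were 4, 0, 1 and 0 with vehicle and 14, 1, 4 and 1 with papain. The log2 fold change on the AhR-poor diet was 6.15 ± 0.83 (SE, adjusted p = 4.24e-05). H2-Q6 measured 3.596, 2.75, 2.30 and 2.47 CPM with vehicle and 10.3, 10.5, 6.32 and 3.43 CPM with papain on the AhR-poor diet, with T112 inside the vehicle range, and the log2 fold change was 1.46 ± 0.33 (SE, adjusted p = 0.00204). H2-Q7, which encodes the Qa-2 antigen, went from 2.06 ± 0.710 to 6.23 ± 2.04 CPM (SD, n = 4), 1.60 ± 0.35 (SE, adjusted p = 0.00185). H2-M3, which presents formylated peptides of bacteria, rose by 1.05 ± 0.25 (SE, adjusted p = 0.00287). H2-T24, under 1 CPM on average and named after its values were seen, rose by 4.05 ± 0.60 (SE, adjusted p = 5.40e-05). Part of these transcripts cannot be told apart from their relatives, since 21.9% of the H2-Q7 and 10.8% of the H2-Q6 windows of 100 bases occur identically in another gene.

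Between the diets with papain, 5 of 12 class Ib genes were called higher on the AhR-poor diet, beside 7.15% of all genes tested. They were H2-Q6, H2-Q7, H2-Q10, H2-T24 and H2-M3, in a comparison that shares its AhR-poor papain libraries with the one above. The log2 differences ran from 1.06 for H2-M3 to 5.62 for H2-Q10, and DESeq2 called 6 of 12. Leaving out a library gave between 4 and 7 calls, and H2-M3 was lost without any one of T104, T105, T107, T113, T114 and T115. The most abundant class Ib genes differed by less: H2-T23, the Qa-1 molecule, by 0.45 ± 0.095 (SE, adjusted p = 0.00220) and H2-T22 by 0.27 ± 0.082 (SE, adjusted p = 0.0240), and H2-Q4 by 0.99 ± 0.29 (SE, adjusted p = 0.0255). With vehicle edgeR called none of the 12 and DESeq2 called 1, while 5 had an unadjusted p under 0.05. Within AhR-poor papain, T105 was the highest and T112 the lowest library for H2-Q6 and H2-Q10, as for the leukocyte markers, whose part was not tested.

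**Figure D5:**
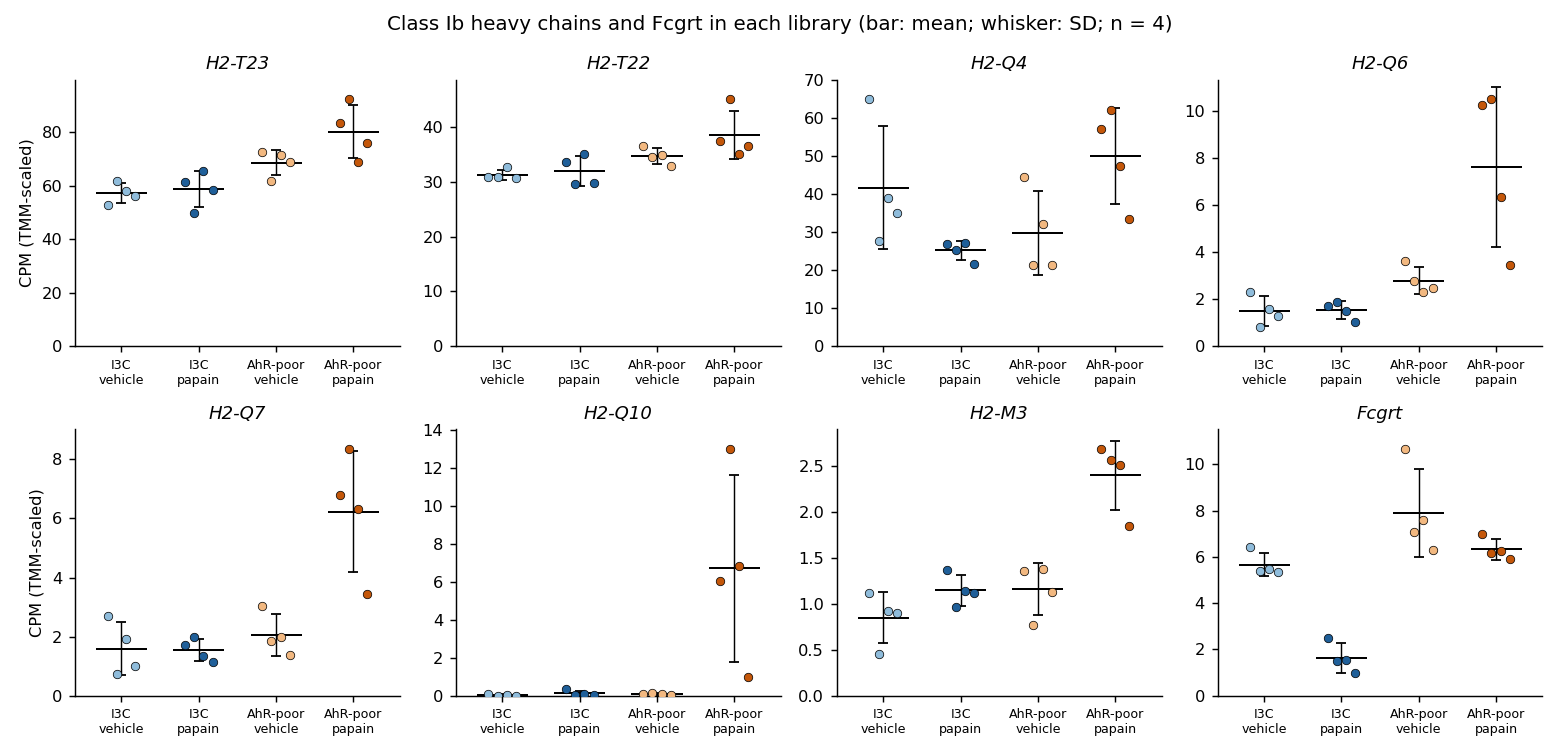
TMM-scaled CPM of 7 class Ib heavy chains and Fcgrt on linear axes from 0, per library (points), with the mean (bar) and SD (whisker) of 4 libraries. H2-Q6, H2-Q7, H2-Q10 and H2-M3 have their highest means with papain on the AhR-poor diet, H2-T22 and H2-T23 vary within a narrow range, and Fcgrt is lowest with papain on the I3C diet, at 0.970 to 2.51 CPM.

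Among the other class I-like molecules, 4 of 6 listed genes were tested. Fcgrt, the neonatal Fc receptor, which pairs with B2m and recycles IgG, measured 6.43, 5.40, 5.50 and 5.34 CPM with vehicle and 2.51, 1.51, 1.54 and 0.970 CPM with papain on the I3C diet. On the AhR-poor diet the values were 10.7, 7.07, 7.59 and 6.28 CPM and 6.99, 6.16, 6.23 and 5.93 CPM. It fell on the I3C diet, by 1.79 ± 0.22 (SE, adjusted p = 3.31e-06) on the log2 scale, and with papain it was higher in AhR-poor than in I3C mice, by 1.95 ± 0.22 (SE, adjusted p = 6.14e-06). Its interaction, 1.47 ± 0.30 (SE, adjusted p = 0.0399), did not pass 0.01 in edgeR and was called by DESeq2. Cd1d1, which presents lipids, rose on the I3C diet by 1.43 ± 0.31 (SE, adjusted p = 0.00107), and its value of 0.67 ± 0.30 (SE, adjusted p = 0.0994) on the AhR-poor diet did not pass. In the interaction of diet and papain, Fcgrt was the only 1 of the 4 with an unadjusted p under 0.05, so no difference between these 2 values of Cd1d1 was shown. None of the 4 was called on the AhR-poor diet by edgeR or DESeq2, although Mr1, which presents vitamin metabolites, was at -0.78 with an adjusted p of 4.37e-04 and Cd1d1 had an unadjusted p under 0.05.

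The partners of loading and trimming in the endoplasmic reticulum moved with papain on both diets, mostly under the fold threshold. Of 8 genes, 2 were called higher on the I3C diet (3.69% of all genes tested) and none on the AhR-poor diet by edgeR or DESeq2 (6.04% by edgeR). At an adjusted p below 0.01, 7 were higher on each diet, all but Bcap31. Over all genes this was 12.7% on the I3C and 12.4% on the AhR-poor diet. Erap1, the aminopeptidase that trims peptides, had a log2 fold change of 1.35 ± 0.13 (SE, adjusted p = 3.75e-07) on the I3C and 0.95 ± 0.13 (SE, adjusted p = 2.60e-05) on the AhR-poor diet. Calr, the chaperone calreticulin, had 1.12 ± 0.11 (SE, adjusted p = 2.07e-07) and 0.95 ± 0.11 (SE, adjusted p = 2.53e-06). Hspa5, the chaperone BiP, had 0.58 ± 0.15 (SE, adjusted p = 0.00403) and 0.65 ± 0.15 (SE, adjusted p = 0.00210). The list's median was 0.74 and 0.57, in the same order of diets. None was called between diets with vehicle or with papain, and at an unadjusted p under 0.05 there were 1 and 3. The interaction of diet and papain was called for none of the 8 by edgeR or DESeq2, and 2 had an unadjusted p under 0.05, Erap1 among them.

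No gene was called in the rest of the proteasome or among the peptidases, on either diet and by edgeR or DESeq2. These were 5 activators and assembly factors, 11 other subunits of the core and 7 cytosolic and endosomal peptidases. On the AhR-poor diet 4, 10 and 4 of these were higher at an unadjusted p under 0.05 and 3, 6 and 1 at an adjusted p below 0.01. On the I3C diet the counts were 5, 8 and 5 unadjusted and 4, 7 and 4 adjusted. Over all genes tested, 12.4% and 12.7% were higher at an adjusted p below 0.01, on the AhR-poor and the I3C diet. The share of all genes at an unadjusted p under 0.05 is not given here. Psme1 and Psme2, the chains of the interferon-inducible activator, stood at 0.22 and 0.29 as log2 fold changes on the AhR-poor diet and 0.18 and 0.31 on the I3C diet. Psme3, the chain of another activator, had 0.46 and 0.58. The reads on Psme1 went from 58.3% to 44.3% of those on Psme3 on the I3C diet, without overlap (exact permutation p = 0.0286, adjusted p = 0.0508). On the AhR-poor diet they went from 67.0% to 56.5%, and the groups overlapped (exact permutation p = 0.0571, adjusted p = 0.0914). The core subunits Psmb1 and Psmb4 had log2 fold changes of 0.022 and 0.20 without I3C and -0.038 and 0.15 with it. Npepps and Nrd1, both peptidases, had 0.61 and -0.11 on the AhR-poor and 0.91 and 0.14 on the I3C diet.

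Of 12 regulators of class I transcription, 1 (Irf1) was called with papain on the I3C diet, where it was lower, beside 5.29% of all genes tested. None was called on the AhR-poor diet by edgeR or DESeq2, where edgeR called 6.04% of all genes higher and 2.42% lower. There 6 of the 12 had an unadjusted p under 0.05, 3 higher and 3 lower. Without the fold threshold, 3 were higher and none lower at an adjusted p below 0.01 on the AhR-poor diet (Nfyb, Irf2 and Nfkb1). On the I3C diet 4 were higher (these and Ciita) and 1, Irf1, lower, and Ciita had the highest log2 fold change, 0.92. Over all genes, 12.4% were higher at that adjusted p on the AhR-poor and 12.7% on the I3C diet. Irf1, an interferon-regulated activator of class I genes, measured 410.2, 154, 216 and 239 CPM with vehicle and 75.5, 69.3, 65.7 and 62.5 CPM with papain on the I3C diet, a log2 fold change of -1.90 ± 0.34 (SE, adjusted p = 5.07e-04). The AhR-poor libraries gave 290.3, 95.9, 209 and 139 CPM and 108.7, 95.8, 122 and 75.5 CPM, -0.87 ± 0.33 (SE, adjusted p = 0.0563), which did not pass. Its vehicle libraries were the more spread on both diets. The interaction of diet and papain was called for none of the 12 by edgeR or DESeq2, and 2, Irf1 and Ciita, had an unadjusted p under 0.05. Ciita, the class II counterpart of Nlrc5, was the 1 of the 12 called between the diets with vehicle, beside 1.59% of all genes called higher. Its log2 difference was 1.34 ± 0.26 (SE, adjusted p = 0.00471), and the call was lost without any one of T101, T102, T103, T108, T110 and T111. None of the 12 was called between the diets with papain by edgeR or DESeq2, and 1 had an unadjusted p under 0.05.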

How the data were processed

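RNA of 16 samples of epidermal cells was sequenced with a stranded mRNA kit. The authors checked reads with FastQC, aligned them with STAR to mm10 and deposited raw counts per gene and library, the unit used here. The counting tool, annotation release and strand setting are not given in the sources used here. Groups came from the labels, and no value column was left unmapped. The members and lists were chosen with earlier results of these data known.

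Genes with at least 10 counts over all libraries (22155) were fitted together in edgeR 4.0.16 (R 4.3.3) with TMM scaling and a mean per group, by the robust quasi-likelihood F test. P-values were adjusted over all genes tested by the Benjamini-Hochberg method. A call required an adjusted p below 0.01 and an absolute log2 fold change above 1. The standard error is the log2 fold change divided by the square root of F. CPM are TMM-scaled. The replicates are biological ones per the study's methods.

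Read ratios within a library were log2-transformed after adding 0.5 counts and compared by two-sided exact permutation tests, adjusted over 32. From each pathway list, up to 4 called genes of at least 1 CPM with the largest change were named, or up to 2 of the most abundant where none was called, and Psmb5, Psmb6, Psmb7, Irf1, Psme1 and Psme2 in any case. Other genes were named after their values were seen. A gene of the regulators is not reported here. Motifs were searched on both strands. Totals of 22500821 to 51844375 counts set the precision. Scripts were tested on simulated data. DESeq2 1.42.0 and other settings served as alternatives.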

Additional observations from a re-analysis of the deposited data

Results flagged for a closer look

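Among the 4 libraries of a group, a value stood apart where its gap to the nearest library, as a share of the whole range, passed Dixon's 95% critical value. Over 25 genes in 4 groups each, 8 groups did so, and chance flags about 1 in 20. Tap1 with vehicle on the AhR-poor diet was 51.1 CPM in T100 and 42.0 to 42.7 in the others. Nlrc5 with papain on that diet was 66.7 CPM in T105 and 47.5 to 49.9 in the others. With vehicle on the I3C diet, Cd1d1 was 1.94 CPM in T109 (0.871 to 0.976 in the others), Ciita was 1.43 in T109 (1.03 to 1.06) and Fcgrt was 6.43 in T108 (5.34 to 5.50). Calr stood apart in 3 groups, at 939 CPM in T106 with papain on the I3C diet (1098 to 1104 in the others), at 612 in T102 with vehicle on the AhR-poor diet (441 to 467), and at 894 in T104 with papain on that diet (970.3 to 986). No cause was tested.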

How the results depend on the processing

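Among the members, Psmb8, Psmb9, Psmb10 and Nlrc5 were called higher with papain on both diets under every alternative run (other scaling, other filters, DESeq2, the 8 libraries alone, each library left out). Dropping the fold threshold gave 10 members on the AhR-poor and 7 on the I3C diet. With each library left out, 4 to 6 members were called with papain on the AhR-poor diet, 4 to 5 on the I3C diet, 0 between diets with vehicle, 0 to 1 between diets with papain (B2m) and 0 in the interaction. Differences near 0 changed sign: scaling by library size alone gave 0.017 for Tap2 between diets with vehicle and 0.0095 for the Psmb9 interaction. Leaving out libraries gave log2 values of -0.13 to 0.011 for H2-D1 with papain on the I3C diet. Between diets with vehicle the ranges were -0.052 to 0.13 for H2-K1, -0.037 to 0.085 for Tap1, -0.11 to 0.050 for Tap2, -0.012 to 0.41 for Psmb9 and -0.036 to 0.32 for Nlrc5. Between diets with papain they were -0.24 to 0.0043 for Tap1, -0.0089 to 0.20 for Tap2 and -0.060 to 0.082 for Tapbp, and in the interaction -0.21 to 0.20 for Psmb9 and -0.19 to 0.037 for Psmb10. None of these was called in any setting, and the cause was not tested. Of the log2 fold changes of members, 769 of 800 kept their direction and call with a library left out and 288 of 290 under the other alternatives. All 256 and 32 recomputed differences of the log2 ratios stayed within the pooled SD of their main value. Their sign was not counted and their permutation tests were not rerun. Judged by the group means of the log2 scaling factors, library size alone shifted log2 differences between diets with papain by 0.11. Other shifts were smaller than 0.1, and the median over genes was not recomputed. DESeq2 called 595 genes higher and 6 lower between diets with vehicle, where edgeR called 352 and 0, and 205 in the interaction, where edgeR called 4 (10 with library size alone, 7 with every gene that had a count). The edgeR count in the interaction depended on single libraries. It was 95 without T112, 30 higher and 1 lower without T106, 15 without T100, and 2 to 4 with any other library left out. Alternatives for the class Ib counts and the called pathway genes, chosen after seeing the data, fell short of a call in 14 of 330 recomputed values, those of H2-M3 and Ciita given above. No paired analysis was possible because the groups share no replicate numbers. Animals of one diet shared a cage, and the sequencing unit of each library is not in the labels.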
